A study of Caenorhabditis elegans with 6 samples.

Results

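The genes described here are 7 transcription factor genes grouped under the sensing of foreign chemicals. They are the nuclear receptor genes *nhr-86*, *nhr-8*, *nhr-48*, *nhr-176* and *daf-12*, the aryl hydrocarbon receptor gene *ahr-1*, and *aha-1*, which encodes the dimer partner of AHR-1. Whether each of them senses such chemicals was not tested. They were chosen by name, and every probe set whose annotation names 1 of them alone was used. This gave 10 probe sets for the 7 genes, of 20766 probe sets that name 1 gene and 17118 genes in all. The rule itself uses no measured value.

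Nuclear hormone receptors are transcription factors that pair a DNA-binding domain with a pocket for small, fat-soluble ligands, so that a compound entering the cell can directly switch target genes. *C. elegans* has a greatly expanded family of them, most of which descend from an ancestor of the vertebrate HNF4 receptors. AHR-1 belongs to a different class, the bHLH-PAS proteins, which bind DNA as pairs. In vertebrates its counterpart is the dioxin receptor, and in *C. elegans* it is known for the development of certain neurons.

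RPW-24 is a synthetic compound that helps nematodes survive bacterial infection. The treated group held wild-type N2 animals exposed to 70 µM RPW-24, and the other group held N2 animals given the solvent DMSO. Both groups were grown at 20°C on *E. coli* OP50 to the late L4 larval stage, then moved to 2 mL of liquid medium with OP50 and 1% DMSO and kept at 15°C for 15 hours. Each group had 3 biological replicates with 1 Affymetrix array each, named G, H and I, and both treatments of a letter were run in parallel.

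Each array gave 1 linear intensity per probe set, made by the authors with GC-RMA and quantile normalization. The lowest intensity was 4.39, and between 36.7% and 37.6% of probe sets lay at it on the RPW-24 arrays, against 36.4% to 38.0% of them with DMSO. Many probe sets carried exactly the same value on several arrays. Of the 15173 probe sets above the lowest intensity on some array, 8041 (53.0%) had fewer than 6 distinct values, and 862 (5.68%) had a single value on all 6. A probe set of this kind gives little or no estimate of its own spread, and several receptor probe sets were among them. The RNA came from whole animals, so fewer cells of a type and less RNA per cell cannot be told apart.

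*nhr-86*, the 1 receptor gene that passed the test, had a slightly higher intensity in RPW-24. It encodes an HNF4-type receptor of the intestine that is known to be needed for the induction of immune effector genes by RPW-24. Its single probe set (176830_s_at, gene Y40B10A.8), of a kind that can match several transcripts, read 652, 704 and 722 for RPW-24 in replicates G, H and I, against 544, 547 and 559 on the DMSO arrays. All 3 RPW-24 arrays lay above all 3 DMSO arrays, and the mean over all arrays was 141 times the lowest intensity.

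The mean of *nhr-86* was 693 ± 36.6 in RPW-24 and 549.9 ± 7.93 in DMSO (SD, n = 3 each). The difference was 0.33 on the log2 scale (standard error 0.04, 95% confidence interval 0.21 to 0.45), a 1.26-fold higher intensity with bounds of 1.16 and 1.37. It passed the threshold of a Benjamini-Hochberg adjusted p under 0.05 over all 22548 probe sets, with an adjusted p = 0.0344 from limma. The differences within replicates were 0.26 in G, 0.36 in H and 0.37 in I. The size of the difference thus varied little between the replicates.

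The call for *nhr-86* was not stable, however. Blocked by replicate letter, the adjusted p was 0.114 from limma. Leaving out 1 array at a time gave log2 differences of 0.30 to 0.37, and the call was lost in 5 of the 6 cases. The adjusted p from limma was 0.125, 0.144 and 0.127 without the DMSO array of G, H or I, and 0.123 and 0.0864 without the RPW-24 array of H or I. Without the RPW-24 array of G it was 0.0172. With arrays centred on their medians, the log2 difference was 0.19, and the limma adjusted p was 0.0465. An exact permutation test of 3 arrays against 3 cannot give a p below 0.1, and *nhr-86* had that value.

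**Figure D1:**
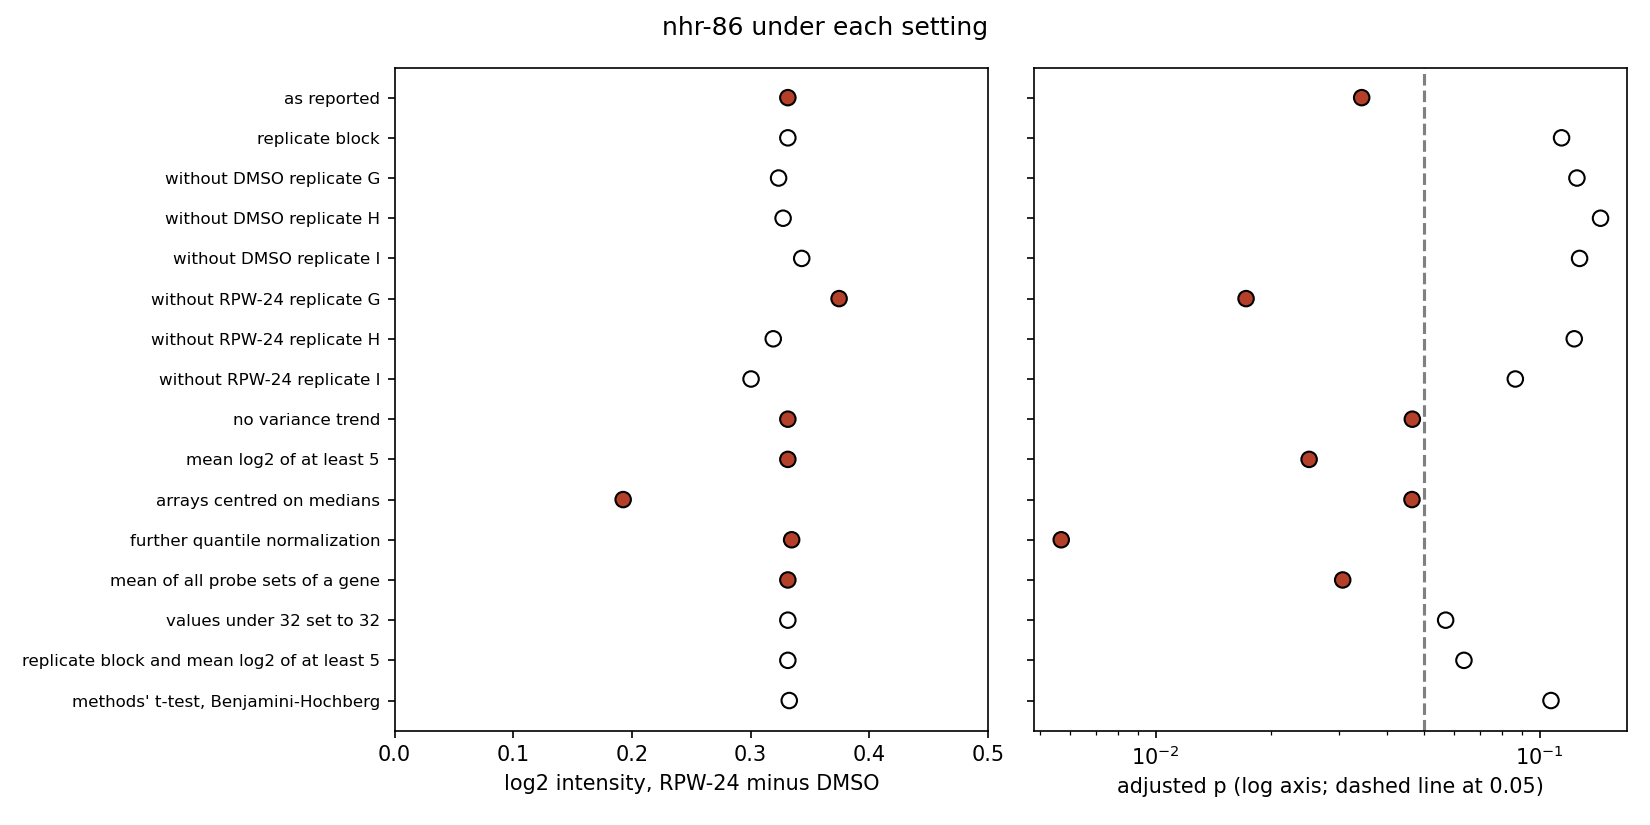
The left panel plots the log2 intensity difference of *nhr-86*, RPW-24 minus DMSO, under each setting tried, and the right panel the adjusted p of the same settings on a log axis with a dashed line at 0.05. The difference stayed between 0.19 and 0.37, while the adjusted p lay on either side of the line, from 0.00568 to 0.144.

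Markers of several tissues also had higher median values in RPW-24, those of the intestine, where NHR-86 acts, among them. The summed intensity of *elt-2*, *ges-1*, *act-5*, *ifb-2* and *vha-6* lay between 12190 and 16130 on the RPW-24 arrays and between 8384 and 11060 on the DMSO arrays. Most of it came from *act-5*. The median difference of these 5 genes was 0.52 on the log2 scale, larger than that of *nhr-86*. Single differences were 1.01 for *ifb-2*, 0.63 for *ges-1* and 0.52 for *act-5*. Those of *elt-2* (0.14) and *vha-6* (0.08) were smaller than that of *nhr-86*. None of these 5 genes passed at a limma adjusted p under 0.05, and 3 had an unadjusted p under 0.05. Over all 17118 genes, 1216 were higher and 1404 were lower at that unadjusted p. No intestinal marker was at the lowest intensity on every array. The median was of similar size for 6 markers of neurons (0.55), 3 of body muscle (0.52) and 4 of sperm (0.53), and it was 0.13 for 3 yolk genes, 0.03 for 3 of the hypodermis and -0.26 for 4 of the germline. The part of tissue makeup in the *nhr-86* result was not tested.

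**Figure D2:**
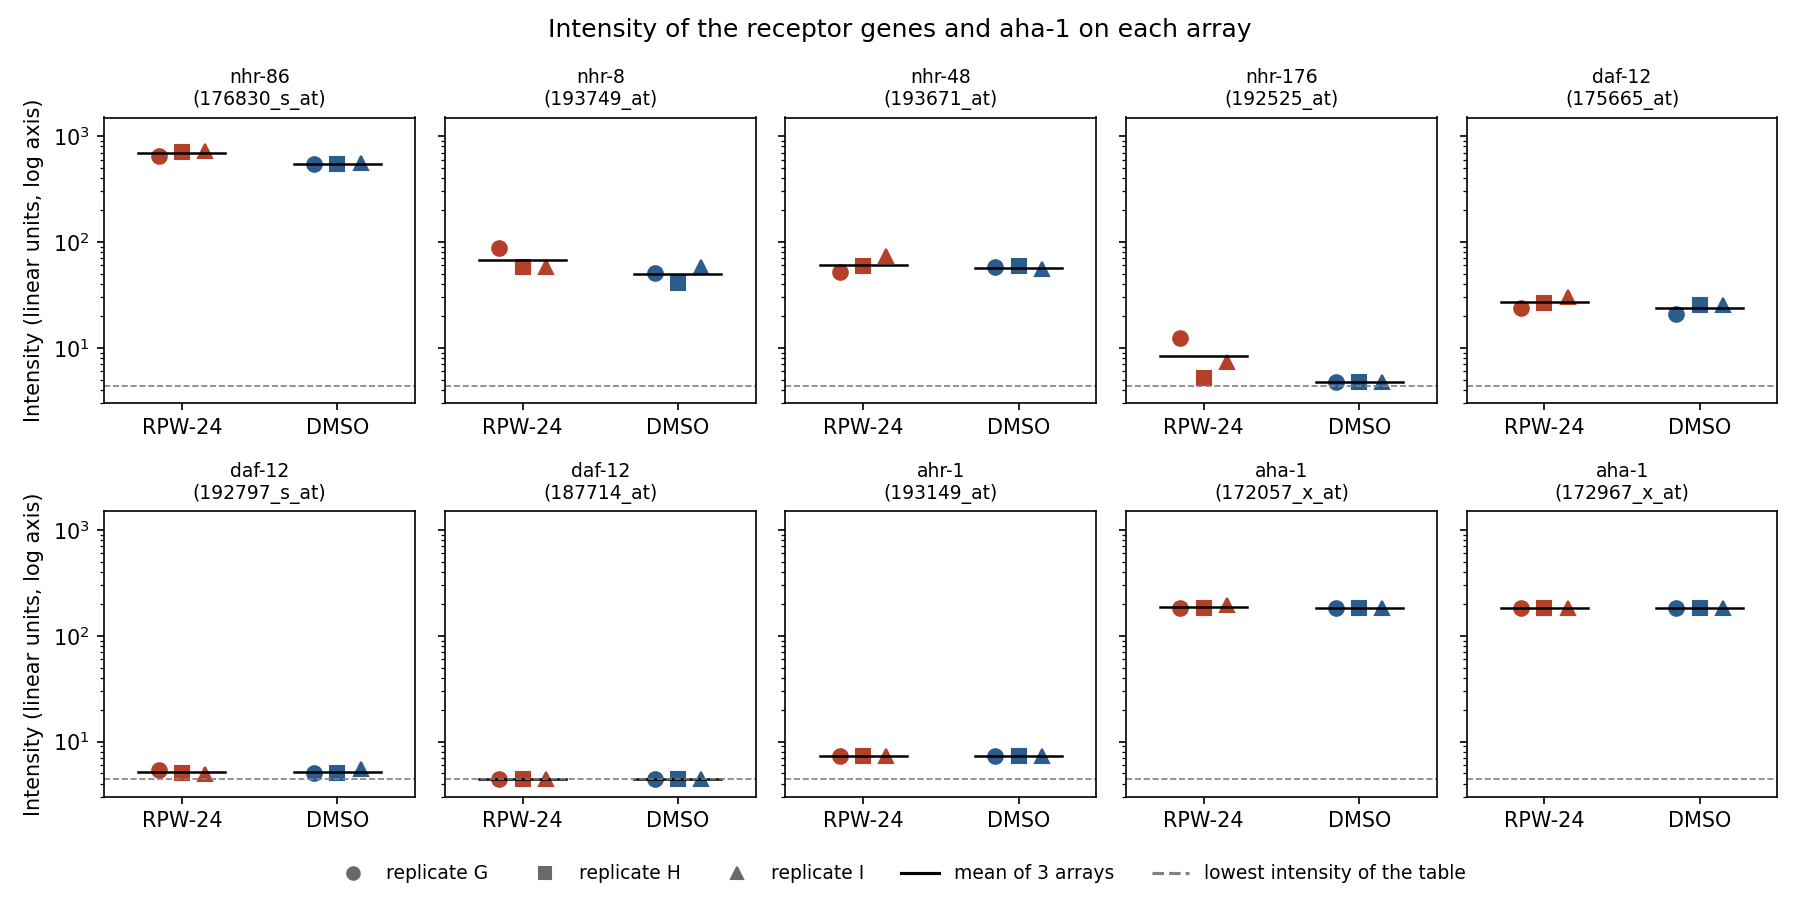
Each panel shows 1 receptor probe set, with the linear intensity on a log axis for the 3 RPW-24 arrays (left) and the 3 DMSO arrays (right), the mean as a bar, and the lowest intensity of the table as a dashed line. The RPW-24 arrays lie above all DMSO arrays for *nhr-86* and *nhr-176* only, and *nhr-176* lies close to the dashed line.

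NHR-8, NHR-48 and DAF-12 form the other branch of receptors in the set, related to the vertebrate vitamin D and xenobiotic receptors. *nhr-8* is known for resistance to toxins such as colchicine and chloroquine and for cholesterol balance. Its probe set (193749_at, gene F33D4.1) read 87.7, 58.0 and 58.0 on the RPW-24 arrays of G, H and I, against 50.7, 41.0 and 58.0 on the DMSO arrays. The RPW-24 arrays of H and I and the DMSO array of I carried the identical value, so the groups overlapped and only the RPW-24 array of G stood above all DMSO arrays.

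The *nhr-8* mean was 67.9 ± 17.2 in RPW-24 and 49.9 ± 8.54 in DMSO (SD, n = 3 each). The log2 difference was 0.43 (standard error 0.23), 1.35-fold, with an adjusted p = 0.526 from limma. Its 95% confidence interval, -0.18 to 1.04, spans 0.884-fold to 2.06-fold, so neither no change nor a doubling lay outside it. Without the RPW-24 array of G the log2 difference was 0.23. The differences within replicates were 0.79, 0.50 and 0.00 in G, H and I.

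*nhr-48*, a close relative of *nhr-8* and *daf-12*, read 51.6, 59.1 and 73.0 on the RPW-24 arrays (193671_at, gene ZK662.3), against 57.5, 58.7 and 55.1 on the DMSO arrays. The groups overlapped, and the RPW-24 arrays held both the lowest and the highest value. The log2 difference was 0.09 (standard error 0.14, 95% confidence interval -0.29 to 0.46), with an adjusted p = 1 from limma. Without the RPW-24 array of I, the highest one, the difference turned to -0.047.

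*daf-12* encodes the receptor for dafachronic acids, the steroid hormones that steer larvae between reproductive growth and the dauer stage. Its brightest probe set (175665_at, gene F11A1.3) read 23.9, 26.3 and 30.2 in RPW-24, against 20.9, 25.2 and 25.2 in DMSO. The difference of 0.17 on the log2 scale (95% confidence interval -0.16 to 0.51) did not pass the test, with an adjusted p = 0.731 from limma, and the groups overlapped. Without the DMSO array of G, or without the RPW-24 array of I, it was 0.083, and a further quantile normalization left 0.003.

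The other *daf-12* probe sets were close to the lowest intensity. One of them, 192797_s_at, read 5.37, 5.0 and 4.97 in RPW-24, against 5.0, 5.09 and 5.53 in DMSO, a log2 difference of -0.03 that turned to 0.019 without the DMSO array of I. The other, 187714_at, was at the lowest intensity on each of the 6 arrays. A reading of *daf-12* therefore rests on 1 probe set.

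*nhr-176* encodes a receptor that is needed for the induction of the cytochrome P450 gene *cyp-35D1* by the anthelmintic thiabendazole. Its probe set (192525_at, gene F14H3.11) read 12.4, 5.19 and 7.34 on the RPW-24 arrays of G, H and I, against 4.76 on each of the 3 DMSO arrays, where the values were identical. The RPW-24 arrays lay above the DMSO arrays, but the probe set was dim, with a mean 1.49 times the lowest intensity. The log2 difference of 0.71 had a wide 95% confidence interval of -0.18 to 1.60 and an adjusted p = 0.453 from limma. Without the RPW-24 array of G it was 0.37. With a floor of 32 on all values no difference was left to measure.

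The known target of NHR-176 rose. *cyp-35D1* read 433, 353 and 364 in RPW-24, against 66.6, 24.5 and 46.8 in DMSO, and all RPW-24 arrays lay above all DMSO arrays. It was 8.99-fold higher, a log2 difference of 3.17 (standard error 0.40), with an adjusted p = 0.029 from limma. Blocked by replicate letter, the adjusted p was 0.102. The call was also lost without the DMSO array of I (adjusted p = 0.119 from limma) and without the RPW-24 array of G (0.102), H (0.104) or I (0.102).

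No difference could be read for *ahr-1*. Its probe set (193149_at, gene C41G7.5) had the identical value of 7.24 on all 6 arrays, 1.65 times the lowest intensity. No spread can be estimated from identical values, so a test of this probe set carries no information on how small a change could have been seen. Of 6 markers of neurons, where AHR-1 is known to act, 4 averaged 5 or more on the log2 scale, and *rab-3* and *unc-13* were dimmer. *egl-21* (log2 difference 0.72, adjusted p = 0.0363) and *ric-4* (0.50, adjusted p = 0.0425) rose in limma. Blocked by replicate letter, the limma adjusted p was 0.0411 for *egl-21* and 0.124 for *ric-4*, whose call was lost. The share of these markers that rose, 33.3%, rests on 2 genes, and 0 fell, against 2.63% and 1.08% of all genes. The sum of *rab-3*, *snb-1*, *unc-64*, *unc-13*, *egl-21* and *ric-4* lay between 5542 and 6177 in RPW-24 and between 5213 and 5685 in DMSO, most of it from *snb-1*.

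*aha-1*, the counterpart of vertebrate ARNT, was read by 2 probe sets of a kind that can match other transcripts (gene C25A1.11). One, 172967_x_at, had the identical value of 184 on all 6 arrays. The other, 172057_x_at, had 182 on the RPW-24 arrays of G and H and 195 on that of I, against 182 on all 3 DMSO arrays. Its log2 difference was 0.03 (95% confidence interval -0.06 to 0.13), with an adjusted p = 0.842 from limma, and it rested on the RPW-24 array of I, without which all remaining arrays were equal.

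The other genes of the AHR-1 system gave as little. *cky-1* and *hlh-34*, bHLH-PAS relatives, were at the lowest intensity on each of the 6 arrays. *hsp-90*, the chaperone that holds the aryl hydrocarbon receptor of vertebrates ready for its ligand, read 18175, 18596 and 18184 in RPW-24, against 18175, 19253 and 21271 in DMSO. Its log2 difference was -0.09, with an adjusted p = 0.701 from limma.

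Counted by gene, each represented by its probe set with the highest mean, 1 of the 7 (14.3%) was higher in RPW-24 at a limma adjusted p under 0.05 and 0 were lower. Over all 17118 genes, 2.63% were higher and 1.08% were lower. At an unadjusted limma p under 0.05 the counts for the 7 genes were again 1 and 0, against 1216 higher and 1404 lower of all 17118 genes. The 3 RPW-24 arrays lay above the 3 DMSO arrays for 2 of the 7 genes, *nhr-86* and *nhr-176*, against 8.4% of all genes. With 7 genes, a count of 1 or 2 does not set them apart from the background. Their median log2 difference was 0.17, against 0.00 for all genes. It was 0.003 against 0.00 after a further quantile normalization, and 0.035 against -0.14 with arrays centred on their medians. A mean log2 value of at least 5 was reached by 4 of the 7, *nhr-86*, *nhr-8*, *nhr-48* and *aha-1*.

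**Figure D3:**
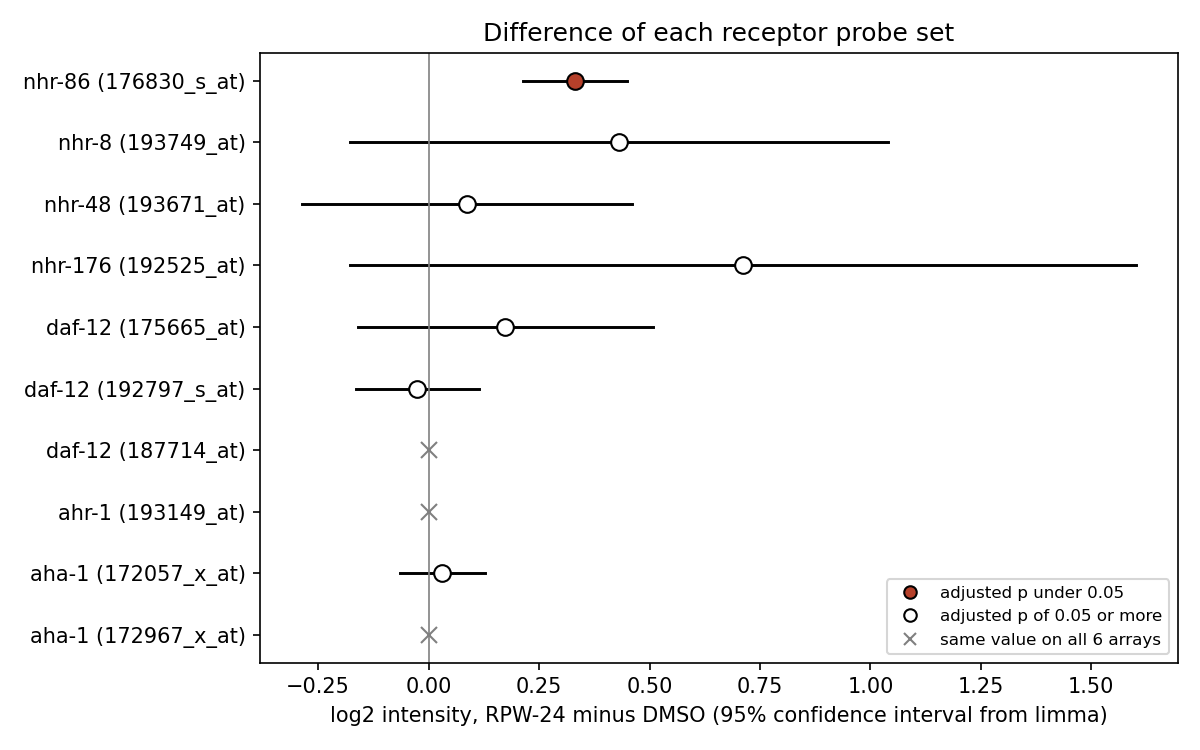
Points give the log2 intensity difference of each receptor probe set, RPW-24 minus DMSO, and lines its 95% confidence interval from limma. The filled point marks *nhr-86*, the only probe set at an adjusted p under 0.05, and crosses mark probe sets with the same value on all 6 arrays, for which no interval is drawn.

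The increase of *nhr-86* was small beside those of other genes. Among the 450 genes that rose, the median log2 difference was 1.60, and 9 of them (2.0%) rose by less than *nhr-86*. It was also small beside those of the immune effectors that depend on NHR-86. These genes were selected by the study for their induction by RPW-24, so their direction is not independent evidence.

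All 3 of these effector genes, which encode secreted proteins with a CUB-like domain, rose. *irg-4* read 28608, 21605 and 21730 in RPW-24, against 189.9, 158 and 100.2 in DMSO. It was 165-fold higher, with a log2 difference of 7.36 (standard error 0.28, adjusted p = 0.00109 from limma). *irg-5* read 17071, 9708 and 8915 in RPW-24, against 87.7, 82.3 and 49.7 in DMSO, a log2 difference of 7.32 (adjusted p = 0.00212 from limma). The spread within either group was small beside these differences.

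*irg-6* had the largest difference of the effectors, 10.08 on the log2 scale (adjusted p = 0.000525 from limma). It read 15758, 8449 and 7952 in RPW-24, against 10.1, 9.12 and 9.12 in DMSO. The DMSO values were near the lowest intensity, and a floor of 32 on all values gave a log2 difference of 8.32. In the methods' t-test on linear intensities, with Benjamini-Hochberg adjustment, the adjusted p was 0.0491 for *irg-4*, 0.191 for *irg-5* and 0.208 for *irg-6*. Of these calls, only that of *irg-4* held there. The log2 difference of *nhr-86* itself, 0.33, came from the same arrays.

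The P-glycoprotein genes encode ATP-driven pumps that move foreign compounds out of cells. Of 13 measured, 2 rose and 0 fell at a limma adjusted p under 0.05, with a median log2 difference of 0.07. The share that rose, 15.4%, stands beside 2.63% of all genes, and rests on 2 genes. *pgp-3*, which is known for resistance to colchicine and chloroquine, read 1506, 995 and 1119 in RPW-24, against 61.2, 35.2 and 48.9 in DMSO. Its log2 difference was 4.65 (standard error 0.27, adjusted p = 0.00306 from limma), and the call held with the replicate letter as a block (adjusted p = 0.0245). The call was lost in the methods' t-test after Benjamini-Hochberg adjustment (adjusted p = 0.0841).

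*pgp-2*, a pump of the intestine's gut granules, read 397, 248 and 270.2 in RPW-24, against 108, 96.3 and 108 in DMSO. It was 2.87-fold higher (log2 difference 1.52, standard error 0.20, adjusted p = 0.0327 from limma), with an adjusted p = 0.11 with the block. Its call was also lost without the DMSO array of G (adjusted p = 0.112 from limma), H (0.135) or I (0.13) and without the RPW-24 array of H (0.0666) or I (0.0959). A pair of pumps had large differences that did not pass. *pgp-13* read 200.8, 50.3 and 149.7 in RPW-24, against 14.4, 14.4 and 12.99 in DMSO, with an adjusted p = 0.0757 from limma. *pgp-1* read 34.2, 14.3 and 14.3 in RPW-24, against 5.03, 5.03 and 4.39 in DMSO, with an adjusted p = 0.0877. For both, every RPW-24 array lay above every DMSO array, and the RPW-24 arrays differed widely among themselves.

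Of 9 genes for the DAF-12 ligand, its sterol supply and its cofactor, 1 rose and 0 fell, against 2.63% and 1.08% of all genes. The gene that rose was *emb-8*, the NADPH-cytochrome P450 reductase that passes electrons to P450 enzymes in general, those of hormone synthesis included. It read 2546, 2382 and 2699.9 in RPW-24, against 1303, 1098 and 1179.6 in DMSO, a 2.13-fold difference (log2 1.09, standard error 0.08, adjusted p = 0.00694 from limma). Blocked by replicate letter, the adjusted p was 0.0589.

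The genes dedicated to the DAF-12 hormone were mostly too dim to read. *daf-9*, the P450 that completes dafachronic acid, was at the lowest intensity on each of the 6 arrays, as did *hsd-1* and *strm-1*. *daf-36*, the oxygenase that starts the pathway from cholesterol, read 66.4, 58.1 and 47.4 in RPW-24, against 39.3, 40.1 and 55.2 in DMSO, with an adjusted p = 0.552 from limma. The sterol transporter gene *ncr-1* read 20.3, 20.3 and 22.1 in RPW-24, against 20.3, 19.8 and 9.75 in DMSO, with an adjusted p = 0.731. The groups overlapped for both.

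None of 3 genes listed as cofactors of nuclear receptors, 1 of them itself a receptor, passed at a limma adjusted p under 0.05. None had an unadjusted p under 0.05. *mdt-15*, a Mediator subunit that works with several HNF4-type receptors, read 464, 511 and 511 in RPW-24, against 606, 502 and 483 in DMSO, a log2 difference of -0.09. *cbp-1*, a histone acetyltransferase, had a log2 difference of 0.02. *nhr-49*, an HNF4-type receptor of lipid metabolism, had one of 0.01, with 2079.98, 2206 and 2129 in RPW-24 and 2129 on each DMSO array.

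**Figure D4:**
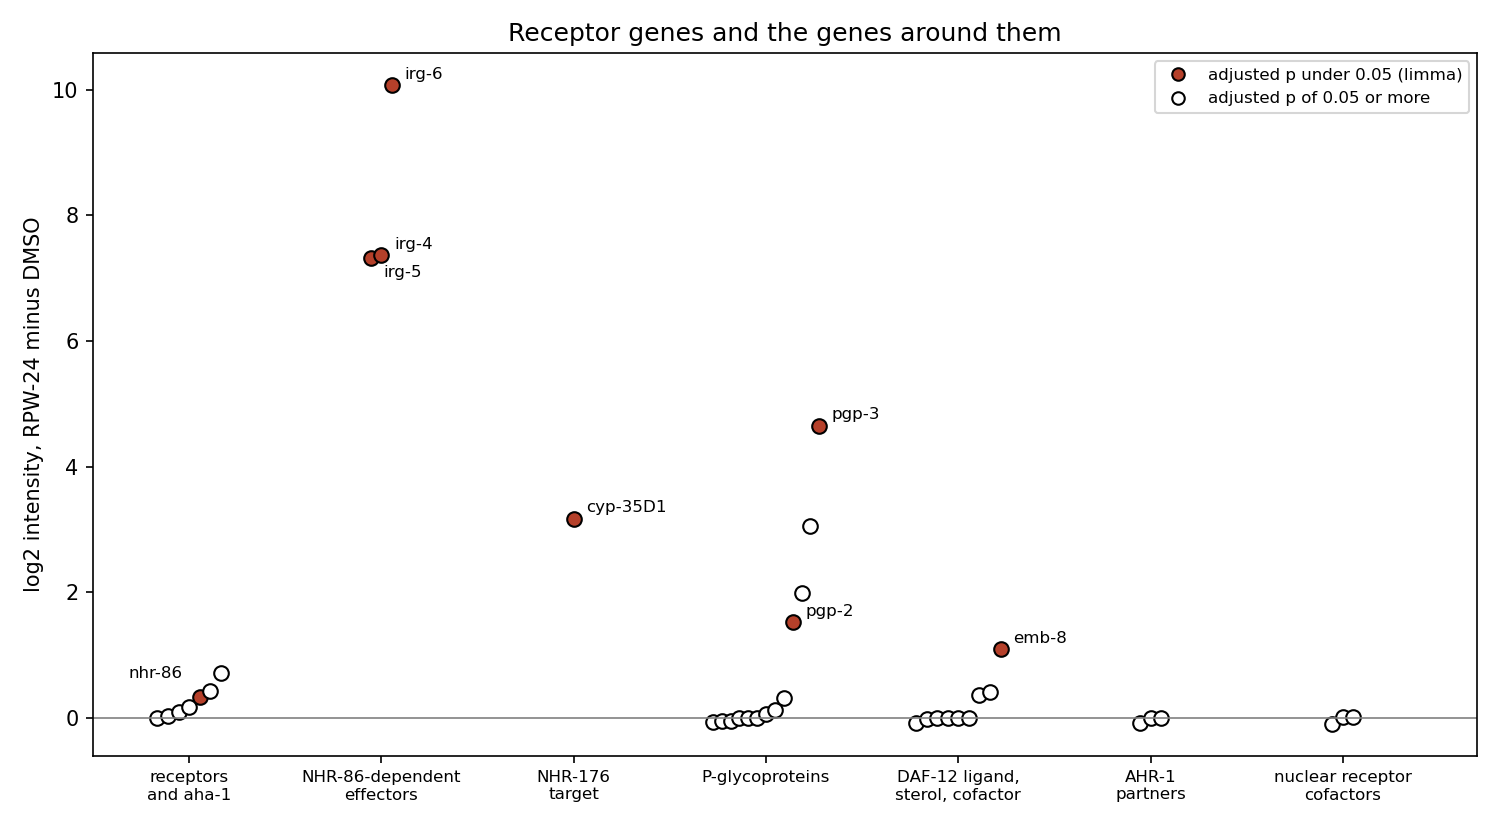
Each point is 1 gene, placed by its log2 intensity difference, RPW-24 minus DMSO, in a column for its list, and filled points have an adjusted p under 0.05 from limma. The receptor genes lie between 0.00 and 0.71 and the cofactors between -0.09 and 0.02, while the 3 NHR-86 effectors lie above 7 and *pgp-3* at 4.65.

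Among all nuclear receptors, *nhr-86* ranked near the bottom of those that rose. Of 254 genes named *nhr-*, 15 (5.91%) rose and 0 fell at a limma adjusted p under 0.05, against 2.63% and 1.08% of all genes. Among all genes averaging 5 or more on the log2 scale, 5.36% rose and 2.35% fell. Of the 254, 60 reached that level, so these shares and those of the whole family are not of like sets. All of the 15 but *nhr-205*, *nhr-201*, *nhr-79* and *nhr-182* were among those 60, and the like share for them is 5.36%. By size of the log2 difference *nhr-86* was the 14th of these 15, ahead of *nhr-182* at 0.30. The largest log2 differences were those of *nhr-237* (4.80, adjusted p = 0.00272), *nhr-205* (4.38, adjusted p = 0.000303) and *nhr-42* (3.61, adjusted p = 0.00165). The DMSO values of *nhr-205* were 6.03, 7.40 and 6.46, near the lowest intensity, so its size is poorly bounded. With a floor of 32 the log2 differences were 3.85 for *nhr-237*, 2.10 for *nhr-205* and 3.61 for *nhr-42*. By size, *nhr-205* was then the 6th of the 15, and *nhr-86*, still at 0.33, was the 12th. Blocked by replicate letter, the adjusted p was 0.0756 for *nhr-237*, 0.0299 for *nhr-205* and 0.0638 for *nhr-42*. In that fit 2 of the 254 rose, *nhr-205* and *nhr-182*. The latter was dim, with a mean 1.36 times the lowest intensity. It read 6.62, 6.51 and 6.56 in RPW-24, against 5.35 on each DMSO array, so its call rests on almost no spread. With a floor of 32 its log2 difference was 0.0. Over probe sets averaging 5 or more on the log2 scale, a setting chosen after the data were seen, the same block gave 16 of 60 that rose. No share of all genes is given for either blocked fit, so neither count can be set against a background. Without the block, 7 of the 254 rose when the DMSO array of H was left out and 8 when that of I was. Of the family, 99 genes were at the lowest intensity on each of the 6 arrays.

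The genes whose pattern over the 6 arrays was most like that of *nhr-86*, by Pearson's r of log2 intensity among 9464 probe sets, were *T01D1.4* (0.995), *tent-5* (0.995), *atn-1* (0.994), *azin-1* (0.994) and *ckb-2* (0.9935). They share with it the difference between the groups and a lowest RPW-24 value in replicate G. For *tent-5* the RPW-24 arrays of G, H and I read 379, 456 and 462, against 197, 199 and 211 on the DMSO arrays. The closest to *nhr-8* were *sec-61.G* (0.9925), *asm-2* (0.988), *dcar-1* (0.985), *inx-17* (0.978) and *snx-17* (0.978). With 6 arrays in 2 groups, such a correlation describes these arrays only. None was computed for *ahr-1*, whose values were identical.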

How the data were processed

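The deposited values are linear intensities, 1 for each probe set on each array, made by the authors in GenePattern by GC-RMA with quantile normalization. The GC-RMA version is not stated in the sources read here, nor whether all 6 arrays were normalized together. Quantile normalization removes changes in total RNA, and arrays carry no read depth, so their number limits the precision. The array medians of the deposited values still differed, from 9.831 to 9.985 in RPW-24 and from 8.938 to 9.043 in DMSO.

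From 22625 probe sets, 77 controls were left out and 22548 were tested on the log2 scale. The array annotation names 1 gene for 20766 of them, several for 887 and none for 895, and 20701 of the first kind matched the reference gene table, built on WBcel235 and read only for gene names. Probe sets with several genes were not used. For this reason *hif-1* has no value here. Where a gene had several probe sets, the brightest on average represents it. A value within 0.1% of the lowest intensity counts as being at it.

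RPW-24 and DMSO were compared in R 4.3.3 by the lmFit and eBayes functions of limma 3.58.1, with a variance trend, no block and Benjamini-Hochberg adjustment over all probe sets. Exact permutation tests were two-sided. Tables and plots were made in Python 3.11.15 with pandas 2.3.3, numpy 2.4.6 and matplotlib 3.10.9, and the fit was tested on simulated data. Arrays of the same letter are pairs, since the submitters state that their treatments ran side by side. Over 13787 probe sets, deviations from the group means correlated at 0.0881 (G), 0.144 (H) and 0.138 (I) for the same letter, and at -0.0946 to -0.0323 for different letters. Blocked values are given where they change a call.

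Alternatives were a replicate block, each array left out in turn, no variance trend, only probe sets averaging 5 or more on the log2 scale, other scalings, other treatments of probe sets, a floor of 32, the methods' t-test and the methods' thresholds (3-fold at an unadjusted p under 0.025). The receptors, the lists of related genes and the tissue markers were chosen with earlier results of these data known. Values are given for all receptor probe sets, for the called genes of each list and up to 4 of its brightest others, for the 3 *nhr-* genes with the largest increase, and for the 5 genes most like *nhr-86* and *nhr-8*.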

Additional observations from a re-analysis of the deposited data

How the results depend on the processing

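The limits are the 3 arrays per group, the lowest intensity near which *nhr-176*, *ahr-1* and most *daf-12* probe sets lie, and the repeated values, which leave *ahr-1* and 1 *aha-1* probe set with no spread. Of the 7 genes, the 1 higher call (*nhr-86*) was also made with no variance trend (adjusted p = 0.0466 from limma). The same count was reached over probe sets averaging 5 or more on the log2 scale (0.0251) and with centred (0.0465) or quantile-normalized arrays (0.00568). It was 0 with the replicate block and with values under 32 set to 32 (0.0569). It was also 0 with the block over those brighter probe sets (0.0635, a setting chosen after the data were seen). The methods' t-test after Benjamini-Hochberg adjustment gave 0 (0.107). At the methods' thresholds, with that test or limma, the count was 0 as well, but a 1.26-fold difference cannot meet their 3-fold limit. The count was also 0 without probe sets of possible multiple transcripts, a setting that removes the only *nhr-86* probe set. With 1 array left out it was 0 to 1. Centring the arrays on their medians shifts every probe set by -0.14, constant ones included. It made *ahr-1* a lower call (1 of 7 lower), as did a further quantile normalization (1 of 7), and the *ahr-1* difference was then -0.14 and -0.10.

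In the same settings the difference of *nhr-48* turned to -0.052 and -0.069 and that of *aha-1* (172057_x_at) to -0.11 and -0.10. With 1 array left out, *nhr-48* lay between -0.047 and 0.20, and *daf-12* (192797_s_at) between -0.061 and 0.019. Of the 32 related genes, 7 rose, against 2.63% of all genes. The 7 include *irg-4*, *irg-5* and *irg-6*, which were selected for their induction by RPW-24, so their part of the count is not independent evidence. The count of related genes that rose was 4 with the block, 8 of 13 with the block over the brighter probe sets, and 3 with the methods' t-test after adjustment. It was 5 to 7 with 1 array left out. When arrays were centred 15 were lower, against 0 to 1 with 1 array left out. Of the *nhr-* family, 15 of 254 rose, against 2.63% of all genes. The count was 2 with the block, 16 of 60 with the block over the brighter probe sets, and 7 with the methods' t-test after adjustment. It was 26 with centred arrays and 7 to 12 with 1 array left out. For the related genes and the family alike, no share of all genes is given in these other settings. Lower calls in the family numbered 154 with centred arrays, 2 after quantile normalization, 1 with the block over the brighter probe sets, and 0 to 1 with 1 array left out. Of the single differences recomputed, 217 kept their side of the threshold without an opposite sign (some went to 0), 26 lost the call, 4 gained one and 6 changed sign. The cause of the other changes was not tested.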

Other observations

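Replicate G often held the highest value among the genes that rose. Of 442 genes higher in RPW-24 at a limma adjusted p under 0.05 and without tied RPW-24 values, 246 (55.7%) had their highest RPW-24 value in replicate G, 103 (23.3%) in H and 93 (21%) in I. *irg-4*, *irg-5*, *irg-6*, *cyp-35D1*, *pgp-2* and *pgp-3* were highest in G, and *emb-8* was highest in I. *nhr-86* ran the other way, with its lowest RPW-24 value in G, as had 84 (19%) of the 442 genes. *nhr-8* and *nhr-176*, which were not called, had their highest RPW-24 value in G. These orders are values of single arrays and were not tested.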
